A study of Rattus norvegicus with 13 samples.

Results

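The interaction of glucosamine and IL-1β is the part of the joint response of cartilage cells that the separate responses do not add up to. It was measured in second-passage chondrocytes, the cells that make and keep up cartilage, grown from femoral head cartilage of male Wistar rats aged 2 months and combined into 1 pool. Of the 13 arrays of the study, 1 for each flask, all 13 entered the contrast: 3 of untreated cultures, 2 of cultures kept for 20 hours in 20 mM glucosamine, 4 of cultures with IL-1β at 10 ng/ml over the last 14 hours, and 4 in which this IL-1β treatment followed 6 hours of glucosamine, which stayed in the medium. For each probe set, the response to IL-1β without glucosamine (IL-1β minus untreated) was subtracted from the response with it (both agents minus glucosamine), on log2 of the signals floored at 5.71. A value of 0 means that the fold changes of the 2 agents multiply, a negative value that both agents together gave a lower signal than this product, and a positive value a higher one. Of 31042 probe sets on the array, 29263 rose above the floor somewhere and entered the test, and 13748 genes had a representative probe set among them. The flasks shared 1 pool of cells, so the p-values measure the spread between flasks only, and glucosamine alone rested on 2 arrays.

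IL-1β binds a receptor of the Toll/IL-1 family whose kinases release NF-κB from its IκB inhibitors and activate MAP kinases and AP-1. In cartilage, this raises cytokines, chemokines, prostaglandin and nitric oxide enzymes and matrix-degrading proteases, and lowers the genes of the cartilage matrix. Glucosamine is an amino sugar that enters cells through glucose transporters and is phosphorylated by hexokinase, after which it feeds the hexosamine pathway, the source of UDP-N-acetylglucosamine for glycoproteins and proteoglycans. A question of the study was whether chondrocytes kept in glucosamine still respond to IL-1β, and the interaction is the direct comparison of the response in the absence and in the presence of the sugar.

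The replicate d arrays of IL-1β and of both agents stood apart from the other 11, with a 1st percentile of signals at -31.0 and -36.8 against -6.47 to -4.81, and a residual SD of 0.73 and 0.82 (log2) against 0.16 to 0.39. The ratio of 3' to 5' signal of GAPDH, a measure of RNA integrity, lay between 0.906 and 1.05 in all groups. That of β-actin was 1.18 to 1.25 in untreated cultures, 1.34 with glucosamine, 1.297 to 2.316 with IL-1β and 1.36 to 1.75 with both agents, and its part in the interaction was not tested. All 7 measured chondrocyte markers were above the floor on every array. Untreated cultures held type II collagen (Col2a1) at 3819 ± 346 (SD, n = 3), those with glucosamine 3073 ± 142 (n = 2), those with IL-1β 2812 ± 295 and those with both agents 2829 ± 247 (n = 4 each) on the probe set of highest signal, whose interaction did not pass (0.32 ± 0.16, adjusted p = 0.34). A much dimmer probe set of Col2a1 averaged 106, 42, 3.76 and 20.6 in the same order, at the floor on all IL-1β arrays, and was called (3.11 ± 0.47, adjusted p = 0.0013). In RNA of whole cultures, fewer cells of a type and less RNA per cell cannot be told apart.

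Both agents together most often gave a response to IL-1β that was smaller than that without glucosamine. The interaction was called in 2500 of 29263 probe sets (8.54%; limma, Benjamini-Hochberg adjusted p under 0.05), 1336 of them negative (4.57%) and 1164 positive (3.98%). In 2434 of the 2500, the response with glucosamine was smaller in size, in 52 it was larger, and in 14 both responses were called with opposite sign, so that it reversed. The smaller responses comprised 1295 rises and 1139 falls. In the 1294 rises that passed with IL-1β alone, glucosamine alone was called higher than untreated in 561, lower in 80 and not called in 653. In the 1139 falls, it was called lower in 667, higher in 49 and not called in 423. With glucosamine, 294 of the 2434 still passed as a response in the same direction and 2140 did not pass. Over the array, IL-1β without glucosamine changed 7067 probe sets (24.1%, 11.1% higher and 13% lower), and with glucosamine 525 (1.79%, 0.933% higher and 0.861% lower). Glucosamine alone changed 14.7% (7.14% higher and 7.56% lower) and, in the presence of IL-1β, 23.3%. Both agents against untreated cultures changed 23.9%. These comparisons share arrays with each other and with the interaction. They differ in the number of arrays, and the p-values of each were adjusted separately, so their counts also reflect unlike power. IL-1β was compared over 4 and 3 arrays without glucosamine and over 4 and 2 with it. The classes were made from the same arrays as the contrast and are a description. The median size of the interaction among the called probe sets was 1.05 (log2), and it exceeded 1 in 1336, 2 in 406 and 3 in 137 of them. At the threshold, the nearest 5 genes inside had interactions of 0.377 to 1.94 in size and those just outside of 0.294 to 0.955. Among genes, 1621 of 13748 were called (11.8%), 918 negative (6.68%) and 703 positive (5.11%), and the median interaction over all genes was 0.03. Over probe sets, the count of calls was 1495 without replicate a and 1597 without replicate b of glucosamine alone, and 4116 without the 2 replicate d arrays that stood apart.

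**Figure D1:**
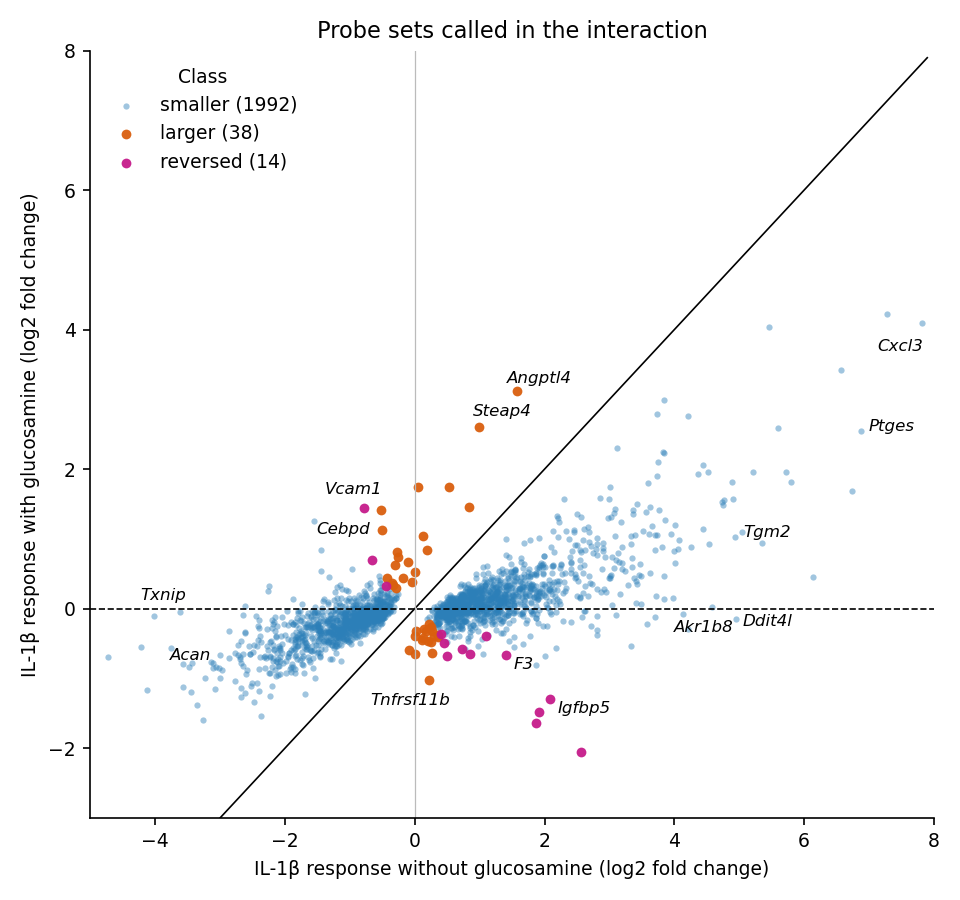
Response to IL-1β without glucosamine (horizontal axis) and with glucosamine (vertical axis), both as log2 fold change, for the probe sets called in the interaction and above the floor on all 13 arrays, colored by class with the number of probe sets of each. Points on the solid line would have responded equally, and points on the dashed line not at all in glucosamine: the 1992 smaller responses lie along the dashed line, the 38 larger ones near the vertical axis or above the solid line, and the 14 reversed ones on the other side of the dashed line.

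The plot of the 2 responses shows most called probe sets near the dashed line of no response, on both the rising and the falling side. Of the 2500 probe sets, 456 were at the floor on at least 1 array and 321 were at the floor on all arrays of a group. For these, the size of the interaction depends on the floor, and the signals are the better description. Among the 17591 probe sets above the floor on all arrays, 2044 were called (11.6%).

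The feedback regulators and targets of NF-κB made up the list with the highest share of negative interactions. Of 20 measured members, 15 were called negative and 1 positive, against 6.68% and 5.11% of all genes, and the median interaction was -1.60, against 0.03. IL-1β alone raised 19 of the 20, and 12 of the 20 rose with IL-1β over glucosamine. The share of all genes is thus not a like baseline for this list. Among probe sets above the floor on all arrays that IL-1β alone raised more than 2-fold, 639 of 991 were called in the interaction. The ubiquitin-editing enzyme A20 (Tnfaip3), which switches the pathway off, gave signals of 13.1, 17.5 and 15.5 on the untreated arrays, 19.9 and 7.32 with glucosamine, 444, 508, 289 and 459.6 with IL-1β and 31.2, 47.4, 36.3 and 29.1 with both agents. The IL-1β arrays did not overlap those of any other group. The log2-additive expectation for both agents, the product of the separate fold changes, was 329, and the observed geometric mean was 35.4 (interaction -3.22 ± 0.48, adjusted p = 0.0013). Its interaction was -2.50 without glucosamine replicate a and -3.94 without replicate b. The kinase Ripk2, which relays signals of intracellular receptors to NF-κB, rose 7.54-fold with IL-1β, and with glucosamine the difference was 1.22-fold and did not pass (interaction -2.63 ± 0.18, adjusted p = 4.6e-06). The NF-κB subunit p100 (Nfkb2) rose 6.66-fold and differed 1.27-fold without passing (-2.39 ± 0.19, adjusted p = 1.5e-05). The positive member was the adhesion molecule Vcam1, whose response reversed. The count of negative members was 15 without the replicate d arrays and 12 to 15 when any 1 array was left out.

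Letters of an NF-κB type site (GGGA and TTCC separated by any 2 bases, on either strand) were searched in the RefSeq promoter windows of GRCr8, from 250 bases before to 50 bases after the start. Of 13748 tested genes, 11360 matched a window and 165 of these held the letters (1.45%), as did 355 of all 27457 windows of the table (1.29%). Among genes with a smaller rise, 24 of 717 with a window held them (3.35%), and among those with a smaller fall 10 of 558 (1.79%). It was 1 of 30 for larger responses (3.33%), 0 of 6 for reversed ones and 2 of 43 for genes additive within 2-fold, described below (4.65%). The additive genes with the letters include Stap2, where they begin 34 bases before the start. Among the 10 smaller rises with the lowest interaction, 0 of the 5 with a window held them. AP-1 type letters, TGANTCA, were in 8.51% of the windows of smaller rises, 6.98% of those of genes additive within 2-fold and 5.35% of those of tested genes. A match is a description and not a binding site, and other forms of the NF-κB site were not searched. The 250 bases before the start are shown for the 6 genes of the naming rule with a smaller rise that hold the NF-κB type letters and belong to the chemokine and NF-κB lists, and for Steap4, the gene of the rule with such letters and a larger response. Capitals mark the letters that matched, on either strand, and the overlapping matches on both strands in Cxcl6 and Cxcl10 appear as 1 run. The windows are Ccl7 at chr10:67513845-67514094, plus strand, Cxcl6 at chr14:17596418-17596667, minus strand, Cxcl10 at chr14:15988816-15989065, plus strand, Cxcl11 at chr14:15973478-15973727, plus strand, Nfkb2 at chr1:255108124-255108373, plus strand, Tnfaip3 at chr1:15543980-15544229, minus strand, and Steap4 at chr4:27054770-27055019, minus strand, each written 5′ to 3′ toward the start of the gene.
Ccl7: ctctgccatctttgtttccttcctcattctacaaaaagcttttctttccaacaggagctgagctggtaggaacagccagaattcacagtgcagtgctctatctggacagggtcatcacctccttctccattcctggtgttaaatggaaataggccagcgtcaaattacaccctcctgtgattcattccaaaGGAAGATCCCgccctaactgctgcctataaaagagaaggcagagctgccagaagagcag
Cxcl6: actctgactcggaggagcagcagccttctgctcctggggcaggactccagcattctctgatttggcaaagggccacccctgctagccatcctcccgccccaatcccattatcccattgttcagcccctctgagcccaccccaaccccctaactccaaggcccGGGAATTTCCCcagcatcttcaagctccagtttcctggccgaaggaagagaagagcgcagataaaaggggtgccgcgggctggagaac
Cxcl10: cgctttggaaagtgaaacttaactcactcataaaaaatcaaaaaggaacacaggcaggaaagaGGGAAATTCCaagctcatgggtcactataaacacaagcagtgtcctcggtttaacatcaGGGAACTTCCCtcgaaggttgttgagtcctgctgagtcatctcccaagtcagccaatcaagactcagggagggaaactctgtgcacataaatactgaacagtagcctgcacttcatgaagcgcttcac
Cxcl11: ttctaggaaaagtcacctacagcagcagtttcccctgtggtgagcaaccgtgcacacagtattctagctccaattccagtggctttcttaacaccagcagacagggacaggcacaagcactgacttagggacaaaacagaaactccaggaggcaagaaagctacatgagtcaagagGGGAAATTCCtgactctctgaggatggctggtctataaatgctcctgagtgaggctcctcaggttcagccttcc
Nfkb2: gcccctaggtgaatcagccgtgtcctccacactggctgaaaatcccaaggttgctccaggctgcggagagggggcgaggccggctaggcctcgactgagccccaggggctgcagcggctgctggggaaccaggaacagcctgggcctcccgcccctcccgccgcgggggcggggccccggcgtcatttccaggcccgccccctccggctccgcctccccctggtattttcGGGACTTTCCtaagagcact
Tnfaip3: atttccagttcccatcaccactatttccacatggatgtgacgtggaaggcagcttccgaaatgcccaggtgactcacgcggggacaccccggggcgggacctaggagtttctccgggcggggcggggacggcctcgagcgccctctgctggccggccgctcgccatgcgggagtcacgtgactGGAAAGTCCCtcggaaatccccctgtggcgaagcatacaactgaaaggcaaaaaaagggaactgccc
Steap4: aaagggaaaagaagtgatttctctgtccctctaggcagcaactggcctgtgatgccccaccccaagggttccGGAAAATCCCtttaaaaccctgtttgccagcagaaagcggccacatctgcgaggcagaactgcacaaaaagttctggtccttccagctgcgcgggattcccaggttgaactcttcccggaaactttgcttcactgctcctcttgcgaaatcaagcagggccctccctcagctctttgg

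Of 19 genes that carry the signal of the IL-1 and Toll-like receptors, 4 were called (21.1%, against 11.8% of all genes), 3 negative and 1 positive, with a median interaction of -0.19. The signaling receptor Il1r1 rose from 57.9 ± 0.955 to 167 ± 9.37 with IL-1β, and was 28.1 ± 0.559 with glucosamine (n = 2) and 29.7 ± 7.08 with both agents, so the rise with glucosamine did not pass (interaction -1.48 ± 0.24, adjusted p = 0.0021). The other probe sets of Il1r1 were not called (interactions -0.40 and -0.011). The receptor-associated kinase Irak2 had an interaction of -2.31 ± 0.16, adjusted p = 4.2e-06, and the inhibitory family member Irak3 of -1.60 ± 0.16, adjusted p = 7.8e-05. Toll-like receptor 2 (Tlr2), by contrast, was additive within 2-fold, as described with the additive genes.

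Interleukins and colony-stimulating factors held the lowest interactions of all genes. Of 17 measured, 8 were called negative and 2 positive (median -1.76), against 6.68% and 5.11% of all genes. Granulocyte colony-stimulating factor (Csf3), which drives neutrophil production, gave -0.304, 1.18 and -1.88 on the untreated arrays, 11.8 and 0.209 with glucosamine, 978, 1255, 1290.2 and 1492 with IL-1β and 8.51, 1.41, 9.11 and 6.79 with both agents. Only the IL-1β arrays stood clearly above the floor (interaction -7.91 ± 0.40, adjusted p = 6.3e-07). The granulocyte-macrophage factor Csf2 gave -0.928, 0.22 and -2.18, 40.1 and 0.0328, 1058, 1260.3, 1091 and 1434 and 11.7, 14.8, 26.6 and 17.1 in the same order (-7.57 ± 0.77, adjusted p = 7.1e-05). Its both-agent arrays were all above the floor and within the range of the 2 glucosamine arrays, and its interaction was -6.16 without glucosamine replicate a and -8.97 without replicate b. The IL-23 subunit p19 (Il23a) exceeded the floor only with IL-1β, where it averaged 767 ± 157 (n = 4), and the alarmin Il1a fell from 175 ± 23.4 with IL-1β to 4.48 ± 3.98 with both agents. The positive members were Il34, a ligand of the macrophage colony-stimulating factor receptor, whose response reversed, and Il33, which was 101 in untreated and 7.85, 8.91 and 12.2 in the treated groups. The call of Il33 did not pass without glucosamine replicate a (adjusted p = 0.13) or without untreated replicate a or c (adjusted p = 0.053 each).

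Chemokines were called in the negative direction only: 3 of 6 neutrophil-attracting CXC chemokines, 4 of 10 other CXC, CX3C and XC chemokines and their receptor, and 6 of 14 CC chemokines, with median interactions of -2.96, -0.041 and -0.86. The share of negative calls among all genes was 6.68%. The monocyte attractant Ccl7 gave 30.9, 31.2 and 34.5 untreated, 101 and 37.4 with glucosamine, 2525, 2910.5, 3093 and 3775 with IL-1β and 571, 685, 682 and 713 with both agents. The both-agent arrays lay between those of IL-1β and those of glucosamine without overlap, and about 8.81-fold below the additive expectation (-3.14 ± 0.39, adjusted p = 0.00034). The interaction of Ccl7 was -2.42 without glucosamine replicate a and -3.86 without replicate b. Cxcl3, a neutrophil attractant, still rose 17.1-fold with glucosamine, against 226-fold without it (-3.73 ± 0.69, adjusted p = 0.0049). Its glucosamine arrays were 94.7 and 14, and its interaction was -2.35 without the first and -5.11 without the second. Cxcl2, of the same family, had the lowest interaction of the chemokines, with 2988 on average with IL-1β and 92.3 with both agents, and its interaction was -5.04 without glucosamine replicate a and -8.75 without replicate b. Cxcl6, another neutrophil attractant, averaged 441 with IL-1β and 16.2 with both agents, and the monocyte and T cell attractants Ccl3 and Ccl5 averaged 691 and 310.1 against 2.58 and 8.07. The ligands of CXCR3, Cxcl10 and Cxcl11, averaged 74.3 and 110.2 against 15.6 and 3.33, and the membrane-bound Cxcl16 1396 against 349. The interaction of the Th17 cell attractant Ccl20 (-3.05 ± 0.76, adjusted p = 0.028) rested on glucosamine signals of 246 and 29.7. It was -1.52 without replicate a of that group and -4.58 without replicate b, and it did not pass without any 1 of 8 other arrays, the 3 untreated ones, IL-1β replicates a and d and both-agent replicates a, b and c (adjusted p up to 0.07).

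Of 17 genes of prostaglandin synthesis, breakdown and receptors, 3 were called negative and 1 positive, against 6.68% and 5.11% of all genes. Cyclooxygenase-2 (Ptgs2) gave 59.2, 60 and 66.5 untreated, 152 and 82.2 with glucosamine, 3479, 3007, 2987 and 4503 with IL-1β and 321, 319, 427 and 555 with both agents. The 4 groups did not overlap, and the both-agent arrays averaged 395 (geometric mean) against an additive expectation of 6221 (-3.98 ± 0.36, adjusted p = 3.1e-05). The terminal synthase Ptges rose 117-fold without and 5.84-fold with glucosamine (-4.32 ± 0.70, adjusted p = 0.002). Its interaction was -2.93 without glucosamine replicate a, which gave 82, and -5.72 without replicate b, which gave 11.9. The cytosolic phospholipase Pla2g4a, which frees arachidonic acid, rose 2.47-fold without glucosamine and differed 1.12-fold with it, which did not pass. The prostaglandin-degrading dehydrogenase Hpgd was the positive member, at 196 untreated, 21.7 with glucosamine, 5.44 with IL-1β and 8.46 with both agents. Among 16 genes of nitric oxide, arginine and polyamine metabolism, 6 were negative and 1 positive. Argininosuccinate synthase (Ass1), which renews arginine, averaged 2247 with IL-1β and 267 with both agents (-3.92 ± 0.66, adjusted p = 0.0028). Its glucosamine arrays were 33.7 and 5.11, the latter at the floor, and its interaction was -2.64 without the first and -5.20 without the second. GTP cyclohydrolase (Gch1), which makes the cofactor of nitric oxide synthase, rose 10.2-fold against 1.5-fold (-2.76 ± 0.15, adjusted p = 8.1e-07).

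Among 15 matrix metalloproteinases, 5 were called negative and 2 positive, against 6.68% and 5.11% of all genes, and they fell into different patterns. Collagenase-3 (Mmp13), which cleaves type II collagen, gave 282, 248 and 275 untreated, 2127 and 2127 with glucosamine, 4545, 3939.5, 4121 and 5385 with IL-1β and 3788, 4037, 3284 and 4375 with both agents. Glucosamine alone raised the gene 7.94-fold, and the both-agent arrays overlapped with those of IL-1β alone, against an additive expectation of 35439 (-3.20 ± 0.18, adjusted p = 1.1e-06). Gelatinase B (Mmp9) and the elastase Mmp12 instead stayed low with both agents: Mmp9 averaged 2194 with IL-1β and 36.5 with both, and Mmp12 1132 and 84.9. Without glucosamine replicate a or b, the interaction was -5.92 or -7.81 for Mmp9 and -3.74 or -5.58 for Mmp12. Stromelysin-2 (Mmp10) averaged 271 and 39.6. The aggrecanase Adamts4, 1 of 2 negative members among 14 ADAM and ADAMTS proteases, rose 4.26-fold with IL-1β and did not pass with glucosamine (-2.16 ± 0.099, adjusted p = 2.7e-07). This rests on the representative probe set. The study's own signals for Adamts4 differ: they are alike in untreated and IL-1β cultures and higher in both groups with glucosamine. Of 10 TIMPs and plasminogen activation genes, 5 were negative and none positive, among them the urokinase receptor Plaur (-3.19 ± 0.36, adjusted p = 0.00015), the inhibitor Tfpi2 (-2.56 ± 0.19, adjusted p = 8.3e-06) and tissue plasminogen activator Plat (-1.65 ± 0.21, adjusted p = 0.00037).

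**Figure D2:**
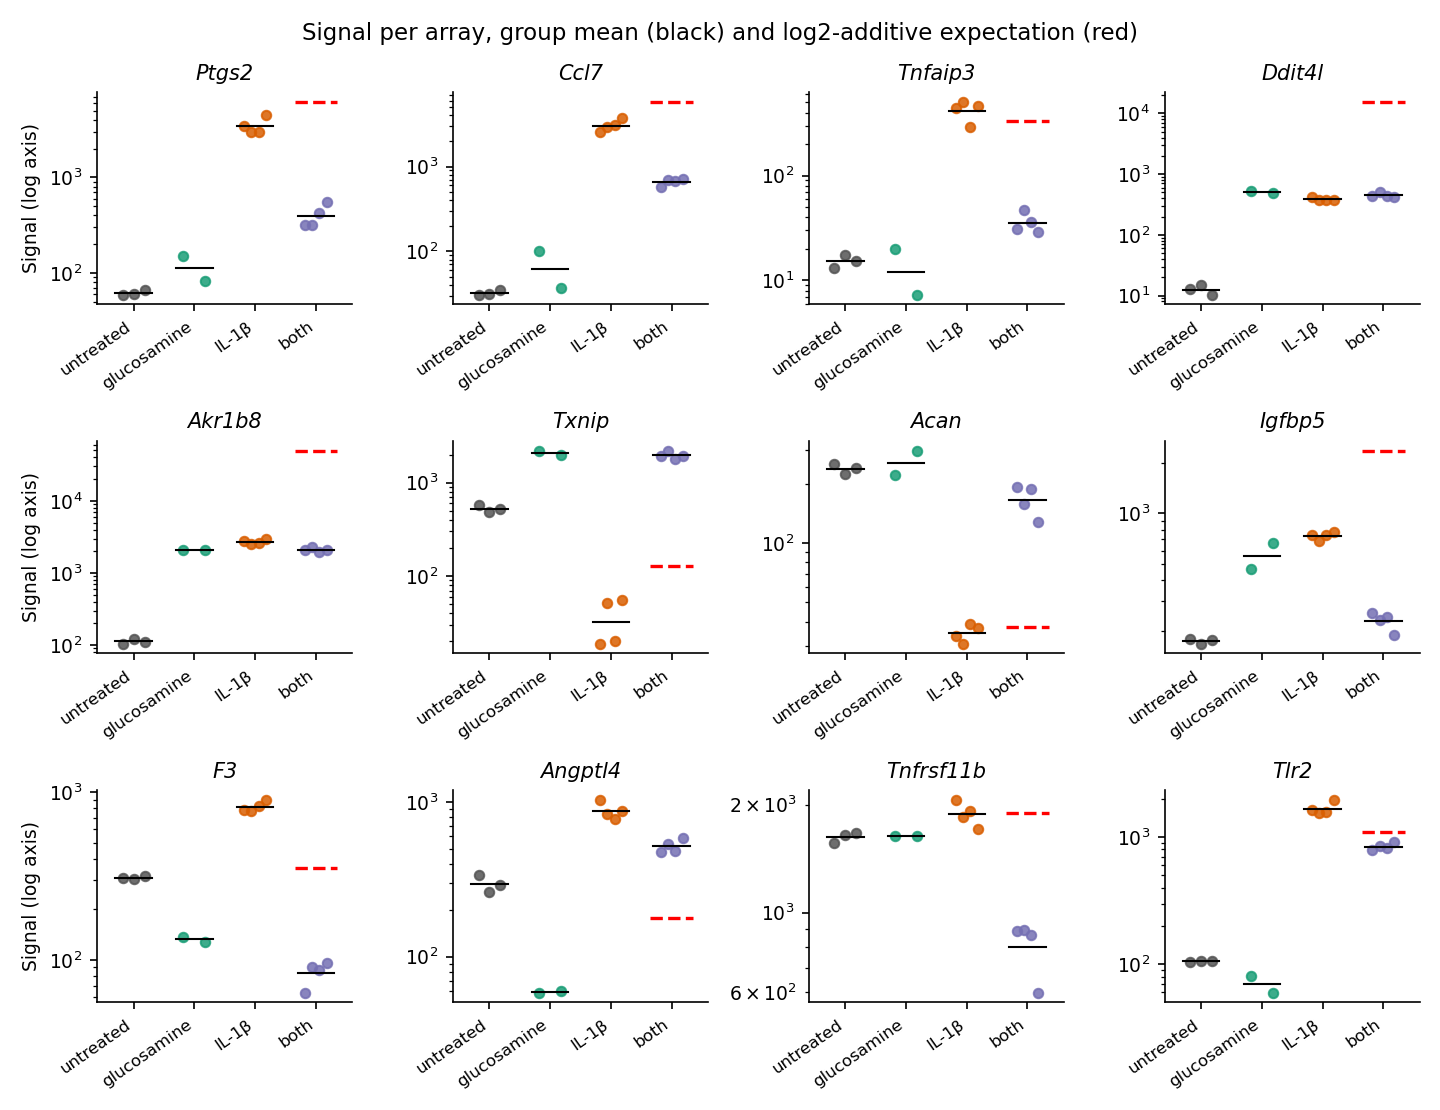
Signal per array on a log axis for 12 genes in the 4 groups, with the geometric mean of each group as a black line and the log2-additive expectation for both agents as a red dashed line. The both-agent arrays lie below the expectation for Ptgs2, Ccl7, Tnfaip3, Ddit4l, Akr1b8, Igfbp5, F3 and Tnfrsf11b, above it for Txnip, Acan and Angptl4, and within 2-fold of it for Tlr2.

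The plot of signals per array sets these patterns side by side. Genes whose fall was smaller with glucosamine included parts of the cartilage matrix. Of 21 cartilage matrix genes, 6 were called positive and 2 negative, against 5.11% and 6.68% of all genes, with a median interaction of 0.45. Aggrecan (Acan), the main proteoglycan of cartilage, gave 253, 226 and 242 untreated, 223 and 296 with glucosamine, 33.7, 30.9, 38.8 and 37 with IL-1β and 193, 159, 189 and 129 with both agents. The IL-1β arrays lay below all others, and the both-agent arrays lay 4.41-fold above the expectation of 37.5 (2.14 ± 0.23, adjusted p = 9.3e-05). Link protein (Hapln1), which fixes aggrecan to hyaluronan, gave 643, 657 and 686, 316 and 253, 59.4, 68.6, 83.3 and 92.3 and 163, 186, 161 and 156 in the same order. The both-agent arrays stayed below those of glucosamine alone, and the fall was 1.7-fold in place of 8.85-fold (2.38 ± 0.21, adjusted p = 2.4e-05). Cartilage oligomeric matrix protein (Comp) had an interaction of 0.94 ± 0.19, adjusted p = 0.0079, which did not pass without glucosamine replicate a (adjusted p = 0.067), and the type IX collagen chain Col9a1 of 0.69 ± 0.19, adjusted p = 0.05, which did not pass without any 1 of 11 arrays, all but IL-1β replicate a and both-agent replicate d (adjusted p up to 0.23). Without glucosamine replicate a, 3 of the 21 were called positive. The negative members were the hyaluronan receptor Cd44 (-1.77 ± 0.16, adjusted p = 3.5e-05) and the proteoglycan versican (Vcan, -1.37 ± 0.21, adjusted p = 0.0015), both of which IL-1β alone raised. Of 11 chondrogenic transcription factors, 2 were positive, Dlx5 (2.06 ± 0.30, adjusted p = 0.00092) and Sox4 (0.68 ± 0.12, adjusted p = 0.0032), and none negative. Dlx5 did not pass with quantile normalization of the arrays.

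Among genes whose fall was reduced most, the thioredoxin-binding protein Txnip, which inhibits thioredoxin and glucose uptake, gave 572, 487 and 523 untreated, 2203 and 1996 with glucosamine, 18.9, 51.8, 19.9 and 55.8 with IL-1β and 1910.3, 2172, 1812 and 1954 with both agents. Both groups with glucosamine lay in the same range, above untreated cultures, while IL-1β alone lowered the gene 16.3-fold (3.93 ± 0.52, adjusted p = 0.00049). On linear signals the interaction of Txnip did not pass. Among the representative probe sets of genes, that of the lipid phosphatase-related Plppr5 had the highest interaction, with means of 286, 97, 4.29 and 33.7. It was at the floor on 3 IL-1β arrays, so the size of its interaction depends on the floor. The other probe set of Plppr5 was called in the same direction with a smaller interaction (1.84, adjusted p = 0.0026). Another pattern was shown by genes that each agent alone lowered to a like level. The long noncoding RNA H19 gave 1007, 1093 and 1165 untreated, 100 and 119 with glucosamine, 72.5, 69.8, 70.1 and 116 with IL-1β and 59.7, 61.2, 66.6 and 120.4 with both agents. Arrays of the 3 treated groups overlapped only through the replicate d arrays of IL-1β and of both agents. All of them lay above the product of the falls, 8.04 (3.19 ± 0.37, adjusted p = 0.0002). The chemokine scavenger Ackr4 averaged 161 untreated and 25.1, 13.6 and 24.3 in the treated groups (3.57 ± 0.37, adjusted p = 7.4e-05). Osteoblast cadherin (Cdh11, 928, 276, 86 and 160.4) and the secreted proteins Fibin (411, 128, 22.1 and 87.3) and Fam180a (485, 404, 28.2 and 179.9) lay between IL-1β and glucosamine alone when both agents were given. The GABA-B receptor subunit Kctd12 fell 6.16-fold with IL-1β and was 120.5 with glucosamine and 123 with both agents (2.66 ± 0.20, adjusted p = 9.5e-06).

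The mirror image was seen in genes that either agent alone raised to a like level and both together raised no further. Ddit4l, a stress-induced inhibitor of the growth kinase mTOR, gave 12.7, 14.8 and 10.4 untreated, 518 and 490.1 with glucosamine, 425, 378, 371 and 373 with IL-1β and 441, 509, 442 and 425 with both agents. The both-agent arrays overlapped with those of each single agent, 34.4-fold below the expectation of 15569 (-5.10 ± 0.17, adjusted p = 2.9e-08). The aldo-keto reductase Akr1b8, which detoxifies reactive aldehydes, gave 105, 122 and 111, 2078 and 2056, 2761, 2493, 2636 and 2946 and 2063, 2307, 1967 and 2054 in the same order. Here both agents stayed below every IL-1β array and overlapped with glucosamine (-4.57 ± 0.11, adjusted p = 4.9e-09). The integrin chain Itga3 averaged 249, 244 and 249 in the 3 treated groups against 13.5 untreated, and the stress transcription factor Atf3 309, 303 and 327 against 27.8. The stress cytokine Gdf15 differed from this pattern, as the single agents raised it to unlike levels. It averaged 5.81 untreated, 79.8 with glucosamine, 423 with IL-1β and 81.4 with both agents, so that both agents gave the level of glucosamine alone. On linear signals Itga3 did not pass, and its arrays ranged from 118 to 346 within the both-agent group.

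Akr1b8 belongs to the targets of NRF2, the transcription factor of the response to oxidants. Of 17 measured targets and peroxide defense genes, 11 were called negative and none positive, against 6.68% and 5.11% of all genes. Their median interaction was -0.96. IL-1β alone raised 12 of the 17, so the share of all genes is not a like baseline for this list either. Among probe sets above the floor on all arrays that IL-1β alone raised more than 2-fold, 639 of 991 were called. The quinone reductase Nqo1 gave 542, 572 and 559 untreated, 2434 and 2325 with glucosamine, 1625, 1543, 1486 and 1823 with IL-1β and 2168, 2499, 1966 and 2525 with both agents. The both-agent arrays overlapped with those of glucosamine alone and lay above those of IL-1β alone (-1.60 ± 0.14, adjusted p = 3.1e-05). Thioredoxin reductase (Txnrd1), which keeps thioredoxin reduced, averaged 528, 803, 1628 and 765 in the same order, so that its rise with IL-1β was not seen over glucosamine (-1.70 ± 0.16, adjusted p = 3.5e-05), and sulfiredoxin (Srxn1) had an interaction of -1.93 ± 0.31, adjusted p = 0.002. The other probe sets of Srxn1 were not called (-0.11 and -1.63). The cystine importer Slc7a11, counted among 21 genes of the amino acid response of ATF4 of which 2 were negative and 2 positive, rose 4.09-fold with IL-1β and did not pass with glucosamine (-2.27 ± 0.14, adjusted p = 2.7e-06).

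**Figure D3:**
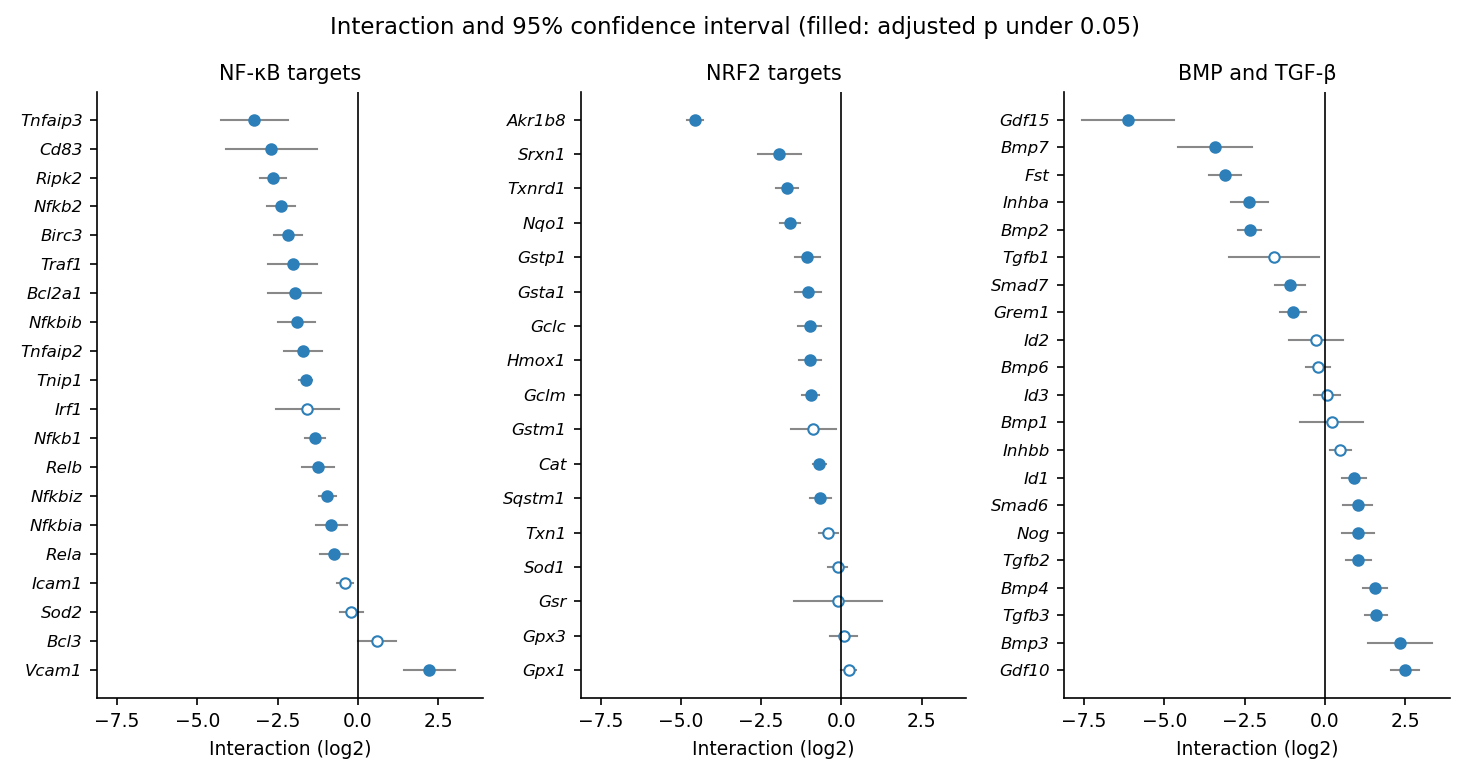
Interaction (log2) of each measured member of 3 gene lists, with its 95% confidence interval from limma as a line; filled points passed the test at an adjusted p under 0.05. NF-κB and NRF2 targets lie mostly on the negative side, and BMP and TGF-β genes on both.

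The plot of intervals shows that BMP and TGF-β genes split by direction. Of 21 ligands, antagonists and readouts, 7 were called negative and 8 positive, against 6.68% and 5.11% of all genes, and these 15 were smaller responses. The antagonist follistatin (Fst), which binds activins, gave 185, 159 and 171 untreated, 43.9 and 32.9 with glucosamine, 1151, 1115, 1095 and 1455 with IL-1β and 26.9, 26.4, 36.3 and 34.9 with both agents. Both agents overlapped with glucosamine alone, while IL-1β alone lay above all others (-3.10 ± 0.23, adjusted p = 7.1e-06). Bmp7, which induces bone and cartilage, averaged 76.2 with IL-1β and 8.16 with both agents, and the family member Gdf10 was 32.4 untreated and at the floor on all arrays of the treated groups. Of 21 FGF, VEGF, IGF and EGF ligands and binding proteins, 6 were negative and 4 positive. Fgf9, a chondrocyte mitogen, averaged 28.4, 96.2, 538 and 78.6 (-4.50 ± 0.25, adjusted p = 1.1e-06), and Igfbp5 reversed. Among 18 Wnt pathway genes, 5 were positive and 1 negative, such as the antagonist Frzb (1.05 ± 0.13, adjusted p = 0.00037).

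The calls in the lists of AP-1 and EGR factors, signaling brakes, clock, glycolysis and the hexosamine pathway were all negative, and the majority of the members of each did not pass. Among all genes, 6.68% were called negative. Of 14 AP-1 and EGR factors, 6 were negative and none positive, among them the AP-1 subunit Fosl1 (-2.62 ± 0.24, adjusted p = 3.7e-05) and the small Maf factor Maff (-2.83 ± 0.18, adjusted p = 2.6e-06). Of 11 MAP kinase phosphatases and Sprouty genes, 5 were negative, with the ERK phosphatase Dusp5 at 19.1, 47.5, 300.2 and 52.2 (-3.84 ± 0.24, adjusted p = 2.6e-06). Of 14 circadian clock genes, 6 were negative, among them the activator Npas2 (-2.40 ± 0.18, adjusted p = 7.8e-06), the repressor Nr1d1 (-1.67 ± 0.30, adjusted p = 0.0039) and Bhlhe41, which reversed. Of 18 glycolysis genes, 6 were negative. The glucose transporter Slc2a1 averaged 288, 620.1, 929.7 and 640.1 (-1.65 ± 0.097, adjusted p = 1.6e-06), and the glycolytic regulator Pfkfb3 had an interaction of -0.80 ± 0.15, adjusted p = 0.006, which did not pass on linear signals. The other probe sets of Pfkfb3 were not called (-0.17 and 0.23). In the hexosamine pathway, 3 of 10 were negative, and Gfpt2, which makes glucosamine-6-phosphate from fructose-6-phosphate, still rose 4.31-fold with glucosamine, against 13.5-fold without it (-1.65 ± 0.17, adjusted p = 7.6e-05). Outside the lists, the amino acid transporter Slc7a8 (-5.69 ± 0.39, adjusted p = 4.1e-06), the ubiquitin ligase-related Neurl3 (-4.42 ± 0.19, adjusted p = 2e-07) and the crosslinking enzyme transglutaminase 2 (Tgm2, -3.91 ± 0.27, adjusted p = 4.2e-06) were among the lowest interactions above the floor. Tgm2 rose 30.6-fold without and 2.03-fold with glucosamine.

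**Figure D4:**
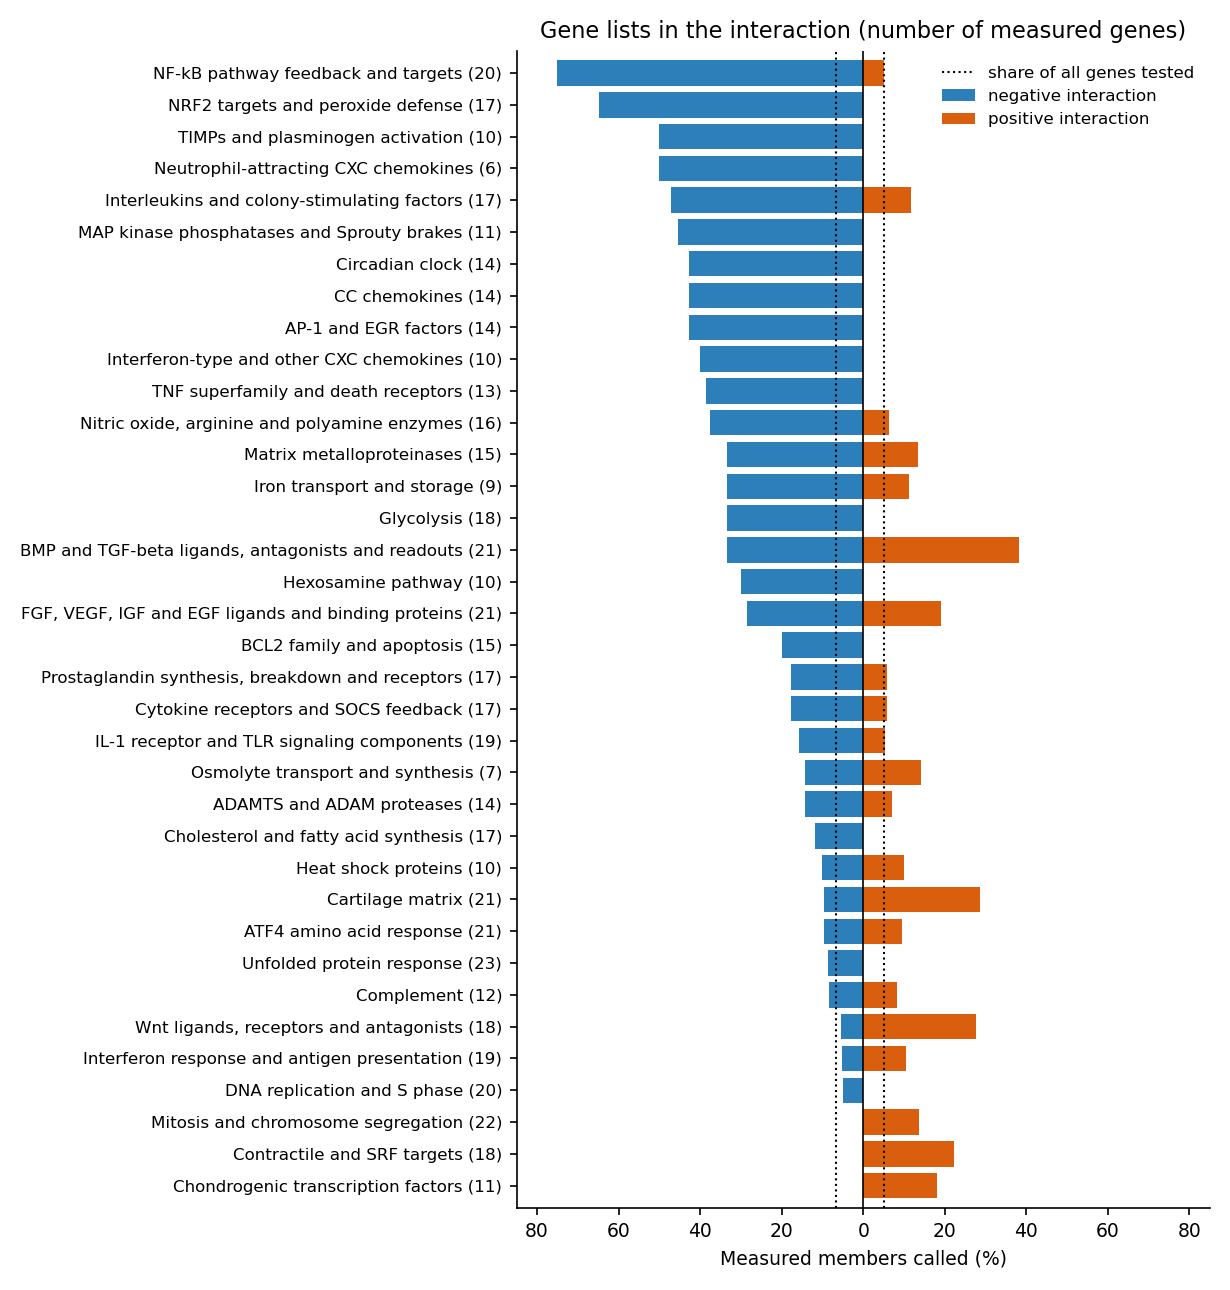
Share of the measured members of each of 36 gene lists called in the interaction, negative to the left and positive to the right (%), with the number measured in brackets. Dotted lines mark the share of all genes tested, 6.68% negative and 5.11% positive: NF-κB and NRF2 targets reach farthest to the left, and BMP and TGF-β and cartilage matrix genes farthest to the right. The lists differ in how many members IL-1β alone changed, so the share of all genes is not a like baseline for each.

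In the plot of lists, the share called was 8.7% for the unfolded protein response, 5% for DNA replication, 13.6% for mitosis, 20% for heat shock proteins and 11.8% for cholesterol and fatty acid synthesis, against 11.8% of all genes. Of 23 genes of the unfolded protein response, 2 were negative and none positive (median -0.085), the oxidoreductase Ero1b (-1.71 ± 0.23, adjusted p = 0.00065) and Sdf2l1 (-0.49 ± 0.11, adjusted p = 0.019), the latter not passing without either glucosamine array or without untreated replicate b (adjusted p up to 0.096). Of 20 genes of DNA replication, 1 was negative and none positive (median -0.25). Of 22 mitotic genes, 3 were positive and none negative (median 0.26). These were cyclin B2 (Ccnb2, 0.80 ± 0.16, adjusted p = 0.0077), Cdca3 (0.84 ± 0.23, adjusted p = 0.041) and securin (Pttg1, 0.92 ± 0.25, adjusted p = 0.043), and none of them passed with quantile normalization. Without 1 array, the call of Ccnb2 did not pass once (glucosamine replicate b, adjusted p = 0.055), that of Cdca3 without any array but glucosamine replicate a, IL-1β replicate b and both-agent replicate b (adjusted p up to 0.22), and that of Pttg1 without any array but both-agent replicate d (adjusted p up to 0.23). Heat shock proteins held 1 negative and 1 positive of 10, the latter the small heat shock protein Cryab, which averaged 373, 414, 61.5 and 326 (2.26 ± 0.22, adjusted p = 5e-05). Of 17 genes of cholesterol and fatty acid synthesis, 2 were negative, the sterol exporter Abcg1 (-3.17 ± 0.24, adjusted p = 8.3e-06) and the sterol sensor Insig1 (-1.38 ± 0.15, adjusted p = 9.6e-05). The other probe sets of Abcg1 were not called (-0.60 and 0.30).

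In 52 probe sets of 35 genes, the response to IL-1β was larger in size with glucosamine, above 0 in 22 and below 0 in 30. This response itself passed in 30 of the 52, and neither response passed in 13. In 37, it had the opposite sign to the response without glucosamine. Angptl4, a secreted inhibitor of lipoprotein lipase, gave 339, 260.3 and 289.6 untreated, 58.7 and 60.5 with glucosamine, 1034, 837, 781 and 869 with IL-1β and 473, 535, 485 and 587 with both agents. IL-1β raised it 2.97-fold from the untreated level and 8.69-fold from the lower level in glucosamine, but the level with both agents stayed below every IL-1β array (1.55 ± 0.17, adjusted p = 0.00014). On linear signals, its interaction was below 0 and did not pass. The metalloreductase Steap4 rose 1.99-fold without and 6.09-fold with glucosamine, from 45.7 ± 5.09 to 91.1 ± 11.9 and from 20.3 ± 3.9 to 123 ± 9.81 (1.61 ± 0.21, adjusted p = 0.00052). Both agents exceeded every IL-1β array for this gene. The transcription factor C/EBPδ (Cebpd), an acute-phase regulator, gave 451, 411 and 452 untreated, 230.2 and 209.9 with glucosamine, 243, 333, 263 and 405 with IL-1β and 456, 586, 530.4 and 829.8 with both agents. The both-agent arrays were the highest of all groups, without overlap (1.94 ± 0.31, adjusted p = 0.0018). The interferon-inducible Mnda was likewise highest with both agents, with means of 82, 40.5, 84.6 and 137 (1.70 ± 0.20, adjusted p = 0.00023). The Wnt modulator Sfrp2 (1.63 ± 0.40, adjusted p = 0.026) did not pass without glucosamine replicate a (1.24, adjusted p = 0.17), untreated replicate a or c, IL-1β replicate b or d, or both-agent replicate a or b. On the falling side, Tnfaip8l3, a phosphoinositide transfer protein, averaged 97.9, 20.8, 91.3 and 1.48, the last at the floor on all 4 arrays (-1.73 ± 0.27, adjusted p = 0.0017). Its interaction did not pass on linear signals. The ubiquitin ligase adaptor Klhl3 (-1.27 ± 0.25, adjusted p = 0.0078) was near the floor in all groups.

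In 14 probe sets of 9 genes, IL-1β moved the signal in opposite directions without and with glucosamine, and both responses passed. The carrier of insulin-like growth factors Igfbp5 gave 179, 167 and 177 untreated, 468 and 669.8 with glucosamine, 744, 687, 745 and 774 with IL-1β and 255, 232, 242 and 189 with both agents. Each agent alone raised it without overlap with untreated cultures, and with both agents it lay below every array of either agent alone (-3.38 ± 0.18, adjusted p = 1.1e-06). Tissue factor (F3), the starter of blood coagulation, gave 307, 302 and 316 untreated, 137 and 128 with glucosamine, 782, 769, 819.9 and 900.5 with IL-1β and 63.8, 91, 86.7 and 95.4 with both agents. IL-1β raised it 2.65-fold without glucosamine and lowered it 1.59-fold in its presence (-2.07 ± 0.18, adjusted p = 2.3e-05). The clock repressor Bhlhe41 rose 1.8-fold and fell 1.57-fold (-1.50 ± 0.14, adjusted p = 4.1e-05), the prostaglandin reductase Ptgr1 rose 1.66-fold and fell 1.49-fold (-1.30 ± 0.17, adjusted p = 0.00039), and the ubiquitin ligase Pdzrn3 rose 1.36-fold and fell 1.4-fold (-0.93 ± 0.11, adjusted p = 0.00022).

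In 3 of the 9 genes, the reversal ran the other way, from a fall to a rise. Vcam1 gave 36.7, 35.4 and 32.4 untreated, 7.72 and 11.5 with glucosamine, 19.8, 22.4, 15.7 and 23.9 with IL-1β and 21.2, 27, 28 and 27.2 with both agents. All treated arrays lay below the untreated ones, and IL-1β lowered the signal from the untreated level and raised it from the lower level in glucosamine (2.23 ± 0.36, adjusted p = 0.002). Il34 followed the same order, with 216, 82.1, 138 and 134 (1.36 ± 0.14, adjusted p = 0.0001), and so did the chromatin protein Hmgb3, with 249.8, 147, 183 and 184 (0.77 ± 0.083, adjusted p = 0.0001). The count of reversed probe sets was 2 without glucosamine replicate a, 4 without replicate b, 8 without untreated replicate b or c or both-agent replicate c, and 32 without the replicate d arrays.

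In 7 probe sets of 5 genes, the difference from untreated cultures passed with both agents together and passed with neither agent alone. Osteoprotegerin (Tnfrsf11b), the decoy receptor that holds back bone-resorbing osteoclasts, gave 1563, 1642 and 1665 untreated, 1636 and 1634 with glucosamine, 2064, 1851, 1917 and 1705 with IL-1β and 886, 892, 868 and 598 with both agents. All IL-1β arrays lay above the untreated ones. The both-agent arrays lay below all 9 others, and the call passed whichever array was left out (-1.24 ± 0.19, adjusted p = 0.0015). The other 4 genes were less stable. The antiviral protein Rsad2 gave -1.67, -1.05 and -2.25, 10 and 7.73, 6.33, 13.2, 6.94 and 11.6 and 57, 60.5, 54.1 and 42.8 in the same order. The arrays of each agent alone lay above the untreated ones, and those of both agents above all others (1.93 ± 0.44, adjusted p = 0.018). This value did not pass without either glucosamine array (adjusted p up to 0.11), and it was -0.93 and did not pass with a floor at the 10th percentile. The AP-1 subunit Fosb (-1.02 ± 0.28, adjusted p = 0.042) was at most 16.6 on every array, and its call did not pass without either glucosamine array, untreated replicate a or c, IL-1β replicate b, or both-agent replicate a, b or c (adjusted p up to 0.18). The selenocysteine lyase Scly (-0.51 ± 0.12, adjusted p = 0.019) did not pass without either glucosamine array or untreated replicate b (adjusted p up to 0.097), and the LIM protein Fhl3 (-0.44 ± 0.11, adjusted p = 0.034) without any array of untreated or glucosamine cultures or both-agent replicate a, b or c (adjusted p up to 0.17).

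A response to IL-1β that was the same with and without glucosamine, to within 2-fold, could be shown for few genes. The median standard error of the interaction, 0.36 (log2), limits how many intervals can be that narrow. Among 1874 probe sets above the floor that IL-1β alone changed by more than 2-fold, the interaction was called in 1138. In 87, of 57 genes, its 95% confidence interval lay between -1 and 1, and 34 of these 87 were also called. For 683 the interval left the size undecided. Toll-like receptor 2 (Tlr2) gave 105, 106 and 106 untreated, 80.9 and 59.9 with glucosamine, 1626, 1551, 1566 and 1971 with IL-1β and 786, 846, 816 and 918 with both agents. IL-1β raised it 15.8-fold and 12.1-fold, with an interval for the interaction of -0.75 to -0.034. The secreted phospholipase A2 (Pla2g2a) rose 11.8-fold and 8.14-fold (interval -0.98 to -0.096), although glucosamine lowered its level in both comparisons, from 175 ± 10.2 to 44.7 ± 12.6 and from 2086 ± 251 to 358 ± 32.2. The chemokine fractalkine (Cx3cl1) rose 10.3-fold and 14-fold (interval -0.051 to 0.95), Bmp6 7.14-fold and 6.16-fold (interval -0.57 to 0.15), and the mitochondrial superoxide dismutase Sod2 4.38-fold and 3.81-fold (interval -0.56 to 0.16). The adaptor Stap2 (interval -0.75 to 0.13) and the lipid regulator Srebf1, which fell 2.86-fold and 2.56-fold (interval -0.13 to 0.44), belonged here too. The cell cycle inhibitor Cdkn1c was within 2-fold and yet called (0.54 ± 0.15, adjusted p = 0.04). Its call did not pass without either glucosamine array, any untreated array, IL-1β replicate b or c, or both-agent replicate b (adjusted p up to 0.2), whereas Tlr2 and Pla2g2a passed without glucosamine replicate b (-0.61 and -0.83, adjusted p = 0.048 and 0.022) and Cx3cl1 without replicate a (0.82, adjusted p = 0.016).

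Several of these genes, additive in fold change, were called on linear signals. On linear signals, where 0 means that the differences in signal add up, the interaction of Pla2g2a was -1597 (adjusted p = 7.1e-05), that of Cx3cl1 -1103 (adjusted p = 0.00011), that of Tlr2 -802 (adjusted p = 0.0021) and that of Bmp6 -303 (adjusted p = 5.6e-05; limma). That of Srebf1 was -141.5 (adjusted p = 0.035), while Sod2 (-1157, adjusted p = 0.084) and Stap2 (-23.1, adjusted p = 0.37) did not pass. Of the other genes named as called on log2, Sdf2l1, Fosb, Pttg1 and Sfrp2 did not pass on linear signals. Over all probe sets, 2711 were called on linear signals, 2112 of them in the same direction as on log2, and 45.1% of the linear calls were negative against 53.4%. The plasminogen activator inhibitor Serpinb2 gave 14.2, 14.3 and 17.3 untreated, 198 and 158 with glucosamine, 221, 185, 172 and 166 with IL-1β and 322, 382, 361 and 432 with both agents. The both-agent arrays were above all others, as far as the sum of the separate rises (linear interaction 25.0, adjusted p = 0.98) and well below their product (-2.53 ± 0.20, adjusted p = 1.2e-05).

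In the remaining 8 lists, the share called ran from 15.8% for the interferon response to 44.4% for iron transport, against 11.8% of all genes. Of 13 genes of the TNF superfamily and death receptors, 5 were negative and none positive, and of 15 BCL2 family and apoptosis genes 3 were negative and none positive. Of 17 cytokine receptor and SOCS genes, 3 were negative and 1 positive, and iron transport and storage held 3 negative and 1 positive of 9. Of 19 genes of the interferon response and antigen presentation, 1 was negative and 2 were positive, complement held 1 of each in 12, and osmolyte transport 1 of each in 7. Of 18 contractile and SRF targets, 4 were positive and none negative. Over the 36 lists, 188 of 557 measured genes were called.

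Markers of other cell types were measured beside these results. The share called among all genes was 11.8%. Of 11 leukocyte and macrophage markers, 1 was called, the lysosomal protein Cd68, negative (-5.00 ± 1.07, adjusted p = 0.012), and its call did not pass without either glucosamine array (adjusted p up to 0.069). The summed signal of the 11 ranged from 304 to 328 in untreated cultures, 328 to 397 with glucosamine, 629.6 to 769.9 with IL-1β and 409 to 618 with both agents, and the leukocyte integrin Itgam was at the floor on all but 1 array. Of 8 adipocyte markers, 3 were negative, the fatty acid carrier Fabp4 (15.3, 25.8, 817 and 98.9), the lipid droplet protein Cidec (-2.72 ± 0.46, adjusted p = 0.0029) and the transcription factor Cebpa (-1.54 ± 0.24, adjusted p = 0.0016). Their summed signal was 141 to 147 untreated, 174 to 193 with glucosamine, 860.2 to 1427 with IL-1β and 231 to 424.5 with both agents, with leptin and Pparg at the floor on all but 1 array each. The part of other cell types in the interaction was not tested. None of 9 endothelial, 6 osteoblast and 9 skeletal muscle markers was called, 3 of 10 fibroblast markers were positive, and 5 of 7 chondrocyte markers were positive. The summed signal of the 7 was 9508 to 10752 untreated, 7322 to 7652 with glucosamine, 5184 to 6277 with IL-1β and 5738 to 6862 with both agents, the last overlapping with IL-1β alone.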

How the data were processed

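Total RNA of 13 chondrocyte flasks was hybridised to 1 rat expression array each. Per the labels and the methods of the study, the authors made the deposited intensity values with MAS5 and an expression estimate of Probe Profiler that scales each array globally, with 1 signal per probe set on a linear scale. Values below 0 occur. Values under the 25th percentile of the whole table were set to it before log2 was taken. The 57 control probe sets and the 1779 at the floor on every array were left out. All 4 groups were fitted together (limma 3.58.1, R 4.3.3, lmFit, then eBayes with trend, on 9 residual degrees of freedom), and calls were made at a 2-sided Benjamini-Hochberg adjusted p under 0.05. The study's own test, a one-way analysis of variance on linear signals, gives no interaction and was an alternative. The number of arrays limits the precision: the median standard error was 0.36 for the interaction and 0.24 for IL-1β alone (log2). The fit was tested on simulated data. Errors after ± are SE for log2 interactions and SD for signals.

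Of 31042 probe sets, 20826 carried 1 gene in the platform annotation, 436 several and 9780 none. A gene is represented by its probe set of highest mean log2 signal. Of the genes named in the text, 35 have 62 other tested probe sets, of which 37 share the call, 24 miss it, 1 passes where the representative does not, and 0 pass in the opposite direction. The 24 belong to Abcg1, Cdh11, Cebpa, Cebpd, Csf2, Cxcl3, Frzb, Gch1, Il1r1, Mnda, Pfkfb3, Plaur, Sfrp2, Sox4, Srxn1 and Vcan. Classes, lists and members were chosen with earlier results of these data known. The rule for named genes takes the 10 lowest and 10 highest interactions, overall and above the floor on all arrays, the 8 largest of each class, up to 4 called members of each list (in lists with fewer than 2 called, up to 2 with the largest change with IL-1β), and the 10 largest IL-1β responses among those additive within 2-fold. It takes 185 genes, and the text gives only part of them, chosen after their values were seen, and Col2a1, Itgam, leptin and Pparg as markers. Signals at the floor have no order. Alternatives changed the floor, scaling, scale, filter, variance model, block, arrays left out and test.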

Additional observations from a re-analysis of the deposited data

Results flagged for a closer look

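The response to IL-1β differed between cultures without and with glucosamine, by the test of the difference itself, in 2500 probe sets.

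In groups of 4 arrays, the array farthest from the others was checked for the genes named above, on log2 of the floored signals. Of 231 groups, 17 had 1 array beyond the 95% critical value of Dixon's gap ratio, where chance gives about 1 in 20 groups. That rate does not hold where all arrays of a group but 1 are at the floor, because any signal above it is then flagged. How many of the 17 are such groups was not counted. Of the 17, 11 were a replicate d array. With both agents, replicate d was high for Bmp7 (16.1), Ccl3 (12.7), H19 (120.4), Il1a (10.4), Klhl3 (7.88) and Pfkfb3 (939.5), and low for Cd68 (-9.49), Irak3 (179) and Tnfrsf11b (598.5), and replicate a was low for Vcam1 (21.2). With IL-1β, replicate d was high for H19 (116) and Plat (4655), replicate a for Ddit4l (425.5) and Mnda (97.5), replicate b for Dlx5 (12.9), and replicate c for Nfkb2 (410) and Plppr5 (6.34). The signals in brackets are as deposited, before the floor was applied.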

How the results depend on the processing

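The predominance of smaller responses held in all alternatives run, at 93.8% to 98.1% of calls, and no probe set called both ways changed direction, apart from 1 on linear signals and 3 in the methods' test. Leaving out 1 array gave 1495 to 3172 calls, 851 to 1604 negative and 644 to 1568 positive, 1451 to 3075 smaller, 31 to 78 larger, 2 to 19 reversed and 63 to 106 additive within 2-fold. It gave 12 to 15 negative calls in the NF-κB list, 10 to 11 in the NRF2 list, 3 to 6 positive calls in the cartilage matrix list and 143 to 205 called genes of all pathway lists. Of the 185 genes of the naming rule, 170 were called, 121 of them also without any single array. The other 49 lost the call without at least 1 array, 48 of them without a glucosamine array, and 0 changed direction. Without both replicate d arrays, there were 4116 calls, 2077 negative and 2039 positive, with 3949 smaller, 135 larger, 32 reversed and 139 additive. Array quality weights gave 6446 calls, 3031 negative and 3415 positive, with 6049 smaller, 323 larger, 74 reversed and 289 called genes of the pathway lists. The replicate letters did not pair all arrays (correlation of deviations -0.17 to 0.80 in 16 pairs of the same letter, median -0.06). The 4 same-letter pairs of IL-1β and both-agent arrays gave 0.375, 0.45, 0.53 and 0.80, the last for the replicate d arrays, and those of different letters among replicates a to c 0.33 to 0.56. The labels name no shared day or batch, and the replicate block gave 3521 calls, with 94 larger and 133 additive. Reversed responses numbered 5 on linear signals, 9 on log2 of signal plus 50 and 51 in the methods' test, which called 2573 probe sets, 42.1% negative. Turned in sign were Rsad2 with a floor at the 10th percentile (-0.93) and, on linear signals in both tests, Angptl4 (-124), Cdkn1c (-81.9), Cx3cl1 (-1103), Pttg1 (-9.47), Serpinb2 (25.0) and Srebf1 (-141.5). The list counts were added to the alternatives after seeing the data. The cause of these shifts was not tested. The interaction of probe sets with a group at the floor has no firm size.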
